A study of Mus musculus with 11 samples.

Results

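The MHC class II genes of the mouse were followed across whole pancreas of offspring whose dams had eaten a control or a protein-poor diet while pregnant and which were then injected with streptozotocin or vehicle as newborns. The members are H2-Aa, H2-Ab1, H2-Eb1, H2-DMa, Cd74 and Ciita, taken as all of their probe sets: 6 genes of 18193 on the array, with 14 probe sets of 45101. Of the 14 probe sets, 11 had a mean log2 signal over the arrays above 6.866, the 0.25 quantile of all probe set means, and entered the tests with 33766 probe sets in all. The other 3 were dim and are given by their values.

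Female Balb/C offspring were 30 days old at sampling, and 11 arrays form 4 groups. Dams fed 20% protein gave 3 control sham and 2 control STZ arrays, the latter numbered 1 and 3 (replicate 2 was not used here). Dams fed an isocaloric diet with 8% protein gave 3 arrays each of low protein sham and low protein STZ, and every dam ate the control diet once the litter was born. Streptozotocin (STZ), a toxin taken up by insulin-producing β cells, was given at 35 mg per kg, and sham animals received vehicle, daily on days 1 to 5. The labels do not name litters, so litter and maternal diet cannot be told apart. Array medians lay between 7.92 and 7.97. The 5 acinar enzyme transcripts that were measured averaged between 14.97 and 15.77 on each array. Ins2, encoding insulin, lay between 14.81 and 15.24 in control sham arrays, at 13.10 and 13.41 in control STZ arrays, between 13.27 and 14.47 in low protein sham arrays and between 12.89 and 13.57 in low protein STZ arrays.

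MHC class II molecules present peptides from endosomes and lysosomes to CD4+ T cells. B cells, dendritic cells and macrophages carry them at rest, and other cells can acquire them under interferon gamma. The α and β chains pair in the endoplasmic reticulum with the invariant chain (Cd74), which keeps the groove closed until lysosomal proteases cut it. H2-DM then exchanges the remaining fragment for antigenic peptide. Transcription of this set of genes depends on the co-activator CIITA, which does not bind DNA itself but docks on factors bound to the conserved X and Y boxes of class II promoters.

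Promoter sequence of 2 members is shown because these boxes are what the class II genes share outside the expression values. RefSeq promoters (GRCm38.p6) were available for H2-Aa, H2-Eb1 and H2-DMa. The stretches are the 120 bases before the annotated start, 5′ to 3′ on the strand of the gene. H2-Aa lies at chr17:34287824-34287943 on the minus strand and H2-Eb1 at chr17:34305747-34305866 on the plus strand, and capitals mark an X box core (CTNGCAAC) and then a Y box (CTGATTGG):
H2-Aa: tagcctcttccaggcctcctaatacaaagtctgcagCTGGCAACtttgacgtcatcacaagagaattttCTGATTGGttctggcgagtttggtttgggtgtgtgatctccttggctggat
H2-Eb1: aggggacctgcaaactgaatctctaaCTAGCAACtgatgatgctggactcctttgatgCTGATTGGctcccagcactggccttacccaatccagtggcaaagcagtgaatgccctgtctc

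Both genes carried the boxes in the same order, with 25 bases between them in H2-Aa and 24 in H2-Eb1. The motifs do not overlap, and both strands of the 250 bases before each start were searched. The X letters were found in 2.84% of 32851 promoters, the Y letters in 3.83% and both in 0.155%. Neither was found exactly in the windows of H2-DMa. Among genes of the same family outside the member list, H2-Oa held the Y letters, H2-Ob the X letters and H2-Eb2 both, with Y before X, while neither was found exactly in H2-DMb1 or H2-DMb2. Near matches were not counted, and both of these hold gtgattgg, 1 letter from the Y box. A match is a description of these letters and not of binding.

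Each member had a probe set above the limit for dim probe sets, which is a quantile and not a detection call. No member differed between groups past the threshold after adjustment over all probe sets. The test was limma's moderated test on the log2 signals with 1 mean per group, adjusted by the Benjamini-Hochberg method, with a threshold of 0.05. In each of the 7 comparisons and in the F test over the 4 groups, 0 of 33766 probe sets passed, members included. At an unadjusted p under 0.05, the F test held 0 of 11 member probe sets, against 8.6% of all probe sets. The member with the smallest p in that F test was H2-Eb1 (limma, adjusted p = 0.691). Group membership held a median of 21.9% of the variance of a member probe set, against 30.1% over all probe sets tested.

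**Figure D1:**
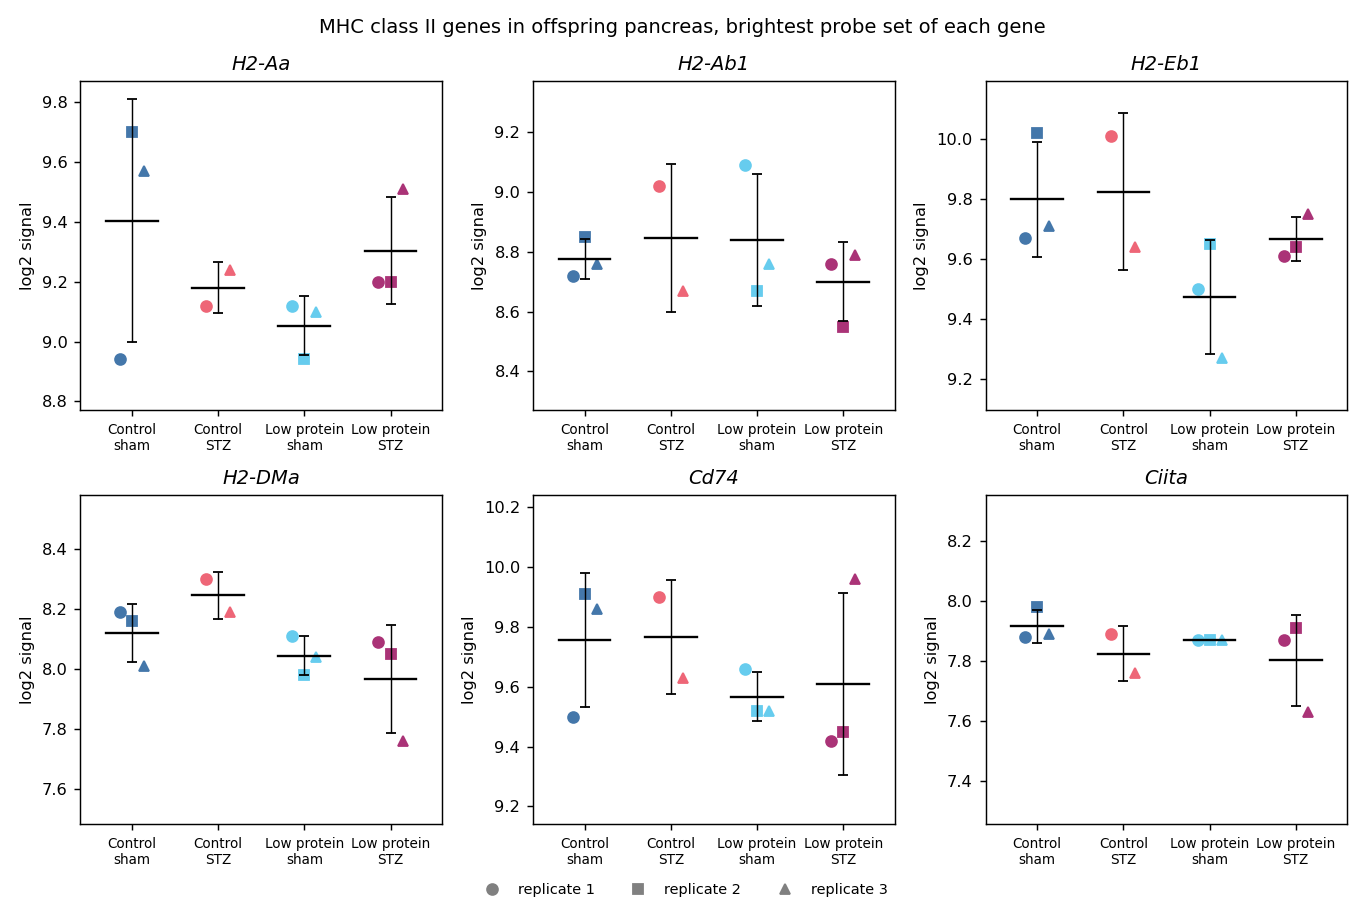
Log2 signal of the brightest probe set of each member on every array (points, shape by replicate number), with the group mean (line) and SD (bars), in panels of equal height. In H2-Aa the control sham arrays reach from 8.94, level with the lowest low protein sham array, to 9.70, while H2-Eb1 is lowest in a low protein sham array at 9.27.

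H2-Aa encodes the α chain of I-A, the first of the class II molecules of the mouse. Its brightest probe set (1435290_x_at) read 8.94, 9.70 and 9.57 in control sham, 9.12 and 9.24 in control STZ, 9.12, 8.94 and 9.10 in low protein sham, and 9.20, 9.20 and 9.51 in low protein STZ arrays. The control sham group thus spanned the range of the 11 arrays, from replicate 1, level with low protein sham 2 at the bottom, to replicate 2 at the top. Low protein STZ arrays were all above low protein sham arrays, and both control STZ arrays lay inside the range of the control sham arrays. The group means ran from 9.40 ± 0.40 (SD, n = 3) in control sham through 9.30 ± 0.18 in low protein STZ and 9.18 ± 0.09 (n = 2) in control STZ to 9.05 ± 0.10 in low protein sham.

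The other probe sets of H2-Aa above the limit followed the first over the arrays. The probe set 1438858_x_at ranged from 9.03 to 9.37 and 1452431_s_at from 7.31 to 7.94, with Pearson's r of 0.88 and 0.75 to the brightest one over 11 arrays, given as a description. In 1438858_x_at the lowest and the highest array were again control sham 1 and control sham 2. Their group differences were smaller, between -0.13 and 0.17 on the log2 scale in the 4 pairwise comparisons. The fourth, 1443783_x_at, stayed between 4.51 and 4.65, under the limit for dim probe sets. In Affymetrix names an _x_at or _s_at ending marks probes that may bind more than 1 transcript.

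H2-Ab1 encodes the β chain that pairs with H2-Aa. Its brightest probe set (1425477_x_at) read 8.72, 8.85 and 8.76 in control sham, 9.02 and 8.67 in control STZ, 9.09, 8.67 and 8.76 in low protein sham, and 8.76, 8.55 and 8.79 in low protein STZ arrays. All 4 groups overlapped, and the group means ran only from 8.70 ± 0.13 (SD, n = 3) in low protein STZ to 8.85 ± 0.25 (n = 2) in control STZ arrays. The highest array was low protein sham 1 in all 3 probe sets of this gene. Over the 11 arrays the brightest probe sets of the 2 chains of I-A had a Pearson's r of 0.06 and a Spearman's rho of 0.24. These values hold for that choice of probe sets, and other pairs of probe sets of the 2 genes were not compared. In 1450648_s_at of H2-Ab1, control sham 1 was the lowest array at 8.19, and it also shared the lowest value of the brightest H2-Aa probe set.

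H2-Eb1 encodes the β chain of I-E, the second class II molecule, which Balb/C mice make. Its only probe set (1417025_at) read 9.67, 10.02 and 9.71 in control sham, 10.01 and 9.64 in control STZ, 9.50, 9.65 and 9.27 in low protein sham, and 9.61, 9.64 and 9.75 in low protein STZ arrays. All 3 low protein sham arrays lay below all 3 control sham arrays, although the gap between low protein sham 2 (9.65) and control sham 1 (9.67) was small. The other groups overlapped. The means were 9.83 ± 0.26 (SD, n = 2) in control STZ, 9.80 ± 0.19 in control sham, 9.67 ± 0.07 in low protein STZ and 9.47 ± 0.19 in low protein sham arrays (n = 3 each).

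Cd74, the invariant chain, was measured by 1 probe set (1425519_a_at). It read 9.50, 9.91 and 9.86 in control sham, 9.90 and 9.63 in control STZ, 9.66, 9.52 and 9.52 in low protein sham, and 9.42, 9.45 and 9.96 in low protein STZ arrays. The lowest and the highest of the 11 arrays were both low protein STZ, and no group stood apart. Cd74 was the member most like the I-A and I-E chains over the arrays, with a Pearson's r of 0.71 to H2-Aa, 0.65 to H2-Eb1 and 0.50 to H2-Ab1. Spearman's rho was 0.54, 0.65 and 0.67 in the same order, and without the 2 arrays farthest from the median of the first gene r was 0.56, 0.61 and 0.64. These points share the same 11 arrays and their scaling.

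H2-DMa encodes the α chain of the peptide exchange factor H2-DM. Its brightest probe set (1422527_at) read 8.19, 8.16 and 8.01 in control sham, 8.30 and 8.19 in control STZ, 8.11, 7.98 and 8.04 in low protein sham, and 8.09, 8.05 and 7.76 in low protein STZ arrays. Both control STZ arrays were above all 3 low protein STZ arrays, with replicate 3 of the latter the lowest of all 11. The second probe set (1459872_x_at) lay under the limit for dim probe sets, between 6.55 and 7.01. It did not follow the first, with a Pearson's r of -0.23 over 11 arrays.

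Ciita, the co-activator itself, had 2 probe sets above the limit that went different ways. The brighter (1421210_at) read 7.88, 7.98 and 7.89 in control sham, 7.89 and 7.76 in control STZ, 7.87, 7.87 and 7.87 in low protein sham, and 7.87, 7.91 and 7.63 in low protein STZ arrays. The other (1421211_a_at) read 6.88, 7.15 and 7.14 in control sham, 7.08 and 7.15 in control STZ, 7.22, 7.24 and 7.26 in low protein sham, and 7.33, 6.98 and 7.09 in low protein STZ arrays. In the first, low protein sham arrays lay just below control sham arrays, and in the second just above them. Pearson's r between these 2 probe sets was 0.01. The dim probe set 1447075_at lay between 6.65 and 7.03, lowest in control sham (6.71 ± 0.06, SD, n = 3) and highest in low protein STZ arrays (6.92 ± 0.09, n = 3). When the dim probe sets were also tested, its diet difference was 0.14 ± 0.07 (SE) in sham animals (limma, adjusted p = 0.567).

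**Figure D2:**
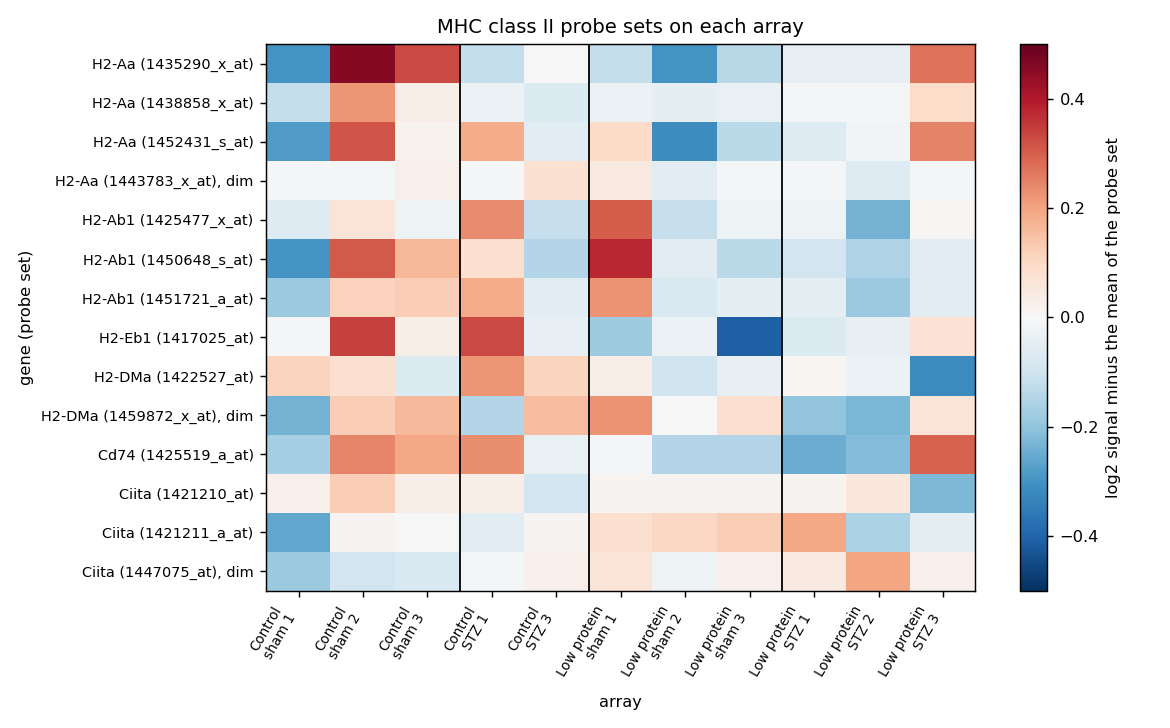
Log2 signal of the 14 member probe sets (rows, 3 marked as dim) on the 11 arrays (columns), each minus the mean of its probe set, with colour limits of -0.5 and 0.5. Control sham 2 is above the row mean in all 11 probe sets above the limit and control sham 1 in 2 of them, while Ciita differs between its own rows.

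Arrays of one group differed as much as the groups did. Control sham 2 lay above the mean of the probe set in 11 of 11 and was the highest array in 5. Control sham 1 lay above it in 2 of 11 and was the lowest array in 4, beside the shared lowest value of the brightest H2-Aa probe set. In 3 of 11 member probe sets (27.3%) the lowest and the highest array belonged to the same group (with the shared lowest value of H2-Aa counted as control sham), against 18.2% of all probe sets tested. The median range of a member probe set over the arrays was 0.54, against 0.43 over all.

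STZ against sham in offspring of control dams asks whether early β-cell loss left a different level of class II transcripts. At an unadjusted p under 0.05, 0 of 11 member probe sets were called by limma, against 4.14% of all probe sets (0 of 33766 after adjustment). H2-Aa differed by -0.22 ± 0.19 (SE; 2 STZ and 3 sham arrays), H2-DMa by 0.13 ± 0.11, Ciita by -0.09 ± 0.09, H2-Ab1 by 0.07 ± 0.14, H2-Eb1 by 0.03 ± 0.15 and Cd74 by 0.01 ± 0.17. The median over the 11 probe sets was 0.03, and 7 lay above 0, as did 51.1% of all probe sets, whose median was 0.003. The value for H2-Aa moved with single control sham arrays: it was -0.45 without replicate 1 (limma, adjusted p = 0.588), -0.08 without replicate 2 (adjusted p = 0.986) and -0.14 without replicate 3 (adjusted p = 1).

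The same contrast in offspring of protein-restricted dams again called 0 of 11 member probe sets at an unadjusted p under 0.05, against 2.34% of all (limma, 0 of 33766 after adjustment). H2-Aa was 0.25 ± 0.17 higher in STZ arrays (n = 3 and 3; limma, adjusted p = 1) and H2-Eb1 0.19 ± 0.13 higher. H2-Ab1 differed by -0.14 ± 0.13, H2-DMa by -0.08 ± 0.10, Ciita by -0.07 ± 0.08 and Cd74 by 0.04 ± 0.16. Both brighter probe sets of H2-Aa were higher in every STZ array than in every sham array. Over all probe sets, 2.77% were separated in this direction. Averaged over the diets, the STZ difference of the 6 genes lay between -0.08 (Ciita) and 0.11 (H2-Eb1), with 0 of 11 probe sets at an unadjusted p under 0.05 against 3.07% of all.

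The STZ effect in the low protein diet minus that in the control diet differed most from 0 for H2-Aa, at 0.47 ± 0.26 (SE; 95% interval -0.10 to 1.04; limma, adjusted p = 1). H2-DMa and H2-Ab1 stood at -0.21 ± 0.14 and -0.21 ± 0.19, H2-Eb1 at 0.16 ± 0.20, and Cd74 and Ciita at 0.03 ± 0.23 and 0.02 ± 0.13. Of the 11 probe sets, 0 had an unadjusted p under 0.05, against 3.56% of all (0 of 33766 after adjustment with limma). The value for H2-Aa was 0.70 without control sham 1 (limma, adjusted p = 0.843) and 0.32 without control sham 2 (adjusted p = 1).

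**Figure D3:**
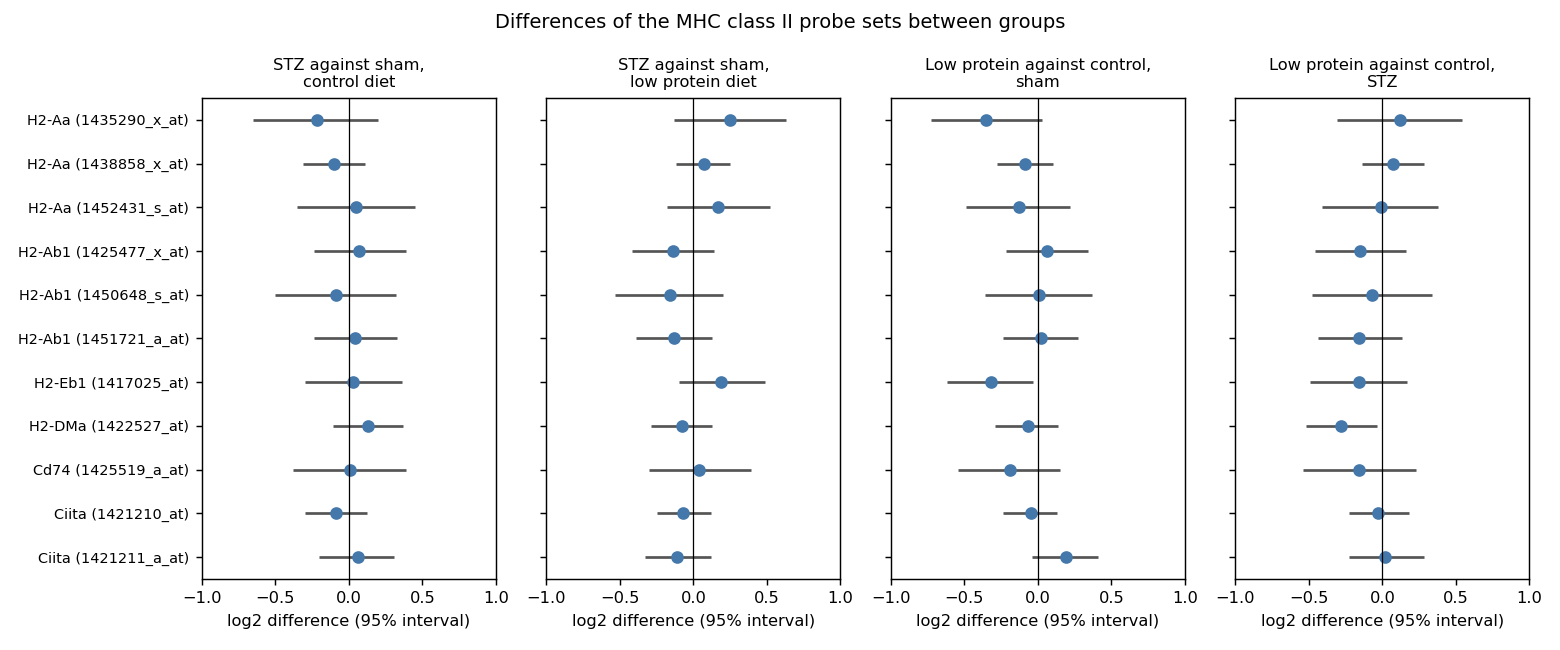
Log2 difference of the 11 member probe sets above the limit in 4 pairwise comparisons (points), with the unadjusted 95% interval of the limma fit (lines). The intervals lie between -0.73 and 0.63, and those of H2-Eb1 in sham animals and H2-DMa after STZ leave out 0.

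Low protein against control in sham animals asks what protein restriction before birth left in class II expression. H2-Eb1 was 1.25-fold lower (-0.32 ± 0.13 SE, n = 3 and 3; 95% interval -0.62 to -0.03; limma, adjusted p = 0.473). H2-Aa stood at -0.35 ± 0.17, Cd74 at -0.19 ± 0.16, H2-DMa at -0.07 ± 0.10, Ciita at -0.05 ± 0.08 and H2-Ab1 at 0.06 ± 0.13. H2-Eb1 was the 1 member probe set of 11 with an unadjusted p under 0.05, against 9.64% of all probe sets (0 of 33766 after adjustment). Separation of the groups was found for H2-Eb1 and the brighter Ciita probe set on the lower side and the other Ciita probe set on the higher side, against 9.42% and 5.62% of all probe sets. The unadjusted p of H2-Eb1 was above 0.05 without control sham 2 (-0.21), low protein sham 1 (-0.34) or low protein sham 3 (-0.22). H2-Aa stood at -0.58 without control sham 1 (limma, adjusted p = 0.254) and at -0.20 without control sham 2 (adjusted p = 0.709).

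After STZ, the diet contrast was led by H2-DMa, 1.22-fold lower in low protein arrays (-0.28 ± 0.11 SE, 3 and 2 arrays; 95% interval -0.52 to -0.04; limma, adjusted p = 0.511). This was the 1 member probe set of 11 at an unadjusted p under 0.05, against 8.42% of all (0 of 33766 after adjustment). H2-Eb1 and Cd74 both stood at -0.16 (± 0.15 and ± 0.17), H2-Ab1 at -0.15 ± 0.14, Ciita at -0.03 ± 0.09 and H2-Aa at 0.12 ± 0.19. H2-DMa was lower in every low protein STZ array, as were 14.7% of all probe sets, and the H2-Aa probe set 1438858_x_at was higher in every one, as were 7.81%. Without control STZ 1 the difference in H2-DMa was -0.23, and without low protein STZ 3 it was -0.18, each with an unadjusted p above 0.05. In the brightest probe sets of H2-Aa and H2-Ab1 the diet contrast had opposite signs in sham and STZ animals, each with a 95% interval that held 0. The H2-Aa probe set 1452431_s_at stood at -0.13 ± 0.16 in sham and -0.01 ± 0.18 in STZ animals.

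Averaged over injections, 10 of 11 member probe sets lay lower in low protein offspring, where 59.7% of all probe sets lay lower. The exception was the dimmer Ciita probe set at 0.10 ± 0.08 (SE). The 11 probe sets stand for 6 genes, and those of H2-Aa and of H2-Ab1 followed each other over the arrays, so they are not independent counts. The median of the 11 was -0.07 and that of all probe sets -0.023. H2-Eb1 differed by -0.24 ± 0.10 (limma, adjusted p = 0.336), H2-DMa by -0.18 ± 0.07 (adjusted p = 0.326) and Cd74 by -0.17 ± 0.12 (adjusted p = 0.572), over 6 low protein and 5 control arrays. Thus 2 of 11 probe sets had an unadjusted p under 0.05, against 13.2% of all (0 of 33766 after adjustment). Without control sham 2, control STZ 1 or low protein sham 3, 0 of 11 remained under 0.05. The signals of the 5 acinar enzyme transcripts, which make up much of the RNA of this tissue, stood lower by a median of -0.38 in the same comparison. Cela1, Cpa1, Prss2 and Ctrb1 read between 15.77 and 15.79 on control sham 1 and between 15.00 and 15.08 on low protein STZ 1. Cel read 15.65 and 14.75 there. Whether these bright probe sets were near saturation was not tested, and neither was their part in the class II values. In whole tissue, fewer cells of a type and less class II RNA per cell cannot be told apart.

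The size of difference in array signal that the fit to all 11 arrays leaves room for can be read from the intervals. They bound the signal of a probe set and not the amount of transcript. Of the 44 unadjusted 95% intervals for the 11 member probe sets in 4 pairwise comparisons, 0 reached a 2-fold change in either direction. The lowest bound was -0.73 (H2-Aa, diet in sham animals) and the highest 0.63 (H2-Aa, STZ in the low protein diet). For the difference of the STZ effects, 1 of 11 intervals reached 2-fold, that of H2-Aa.

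The other genes of the pathway were counted from a list of 18, of which 17 were found under 1 symbol on the array and 16 lay above the limit. H2-DMb1 was not analysed here and H2-Ob was dim (mean 4.81). Over this list limma called 0 genes after adjustment in any of the 7 comparisons. At an unadjusted p under 0.05 it held 0 genes for STZ in either diet, 2 lower for diet in sham animals, 1 lower for diet after STZ and 3 lower for diet averaged over injections, and 0 higher in each of these. With 1 probe set per gene, the share of 15896 genes under 0.05 was 10.4% for diet in sham animals, 9.47% for diet after STZ and 15.3% for diet averaged over injections, so the counts on this list of 16 lie near the background.

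The genes counted were Ctsl, Lgmn, Ifi30 and Ctss, whose products are lysosomal enzymes. Ctsl encodes cathepsin L, which cuts the invariant chain in thymic epithelium and acts in the lysosomes of many cells. It read 12.31, 11.71 and 12.56 in control sham, 11.94 and 11.85 in control STZ, 11.71, 11.43 and 11.70 in low protein sham, and 10.99, 11.34 and 11.71 in low protein STZ arrays. No low protein array was above a control array, and the highest low protein values met the lowest control value at 11.71. Its diet difference averaged over injections was -0.57 ± 0.16 (SE; limma, adjusted p = 0.163). Ifi30, a lysosomal thiol reductase that unfolds antigens, differed by -0.31 ± 0.10 (adjusted p = 0.226), and Ctss, encoding the cathepsin S that cuts the invariant chain in B cells and dendritic cells, by -0.34 ± 0.14 (adjusted p = 0.319). Lgmn, the asparaginyl endopeptidase, differed by -0.27 ± 0.11 in sham animals (adjusted p = 0.467) and by -0.02 ± 0.12 after STZ.

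**Figure D4:**
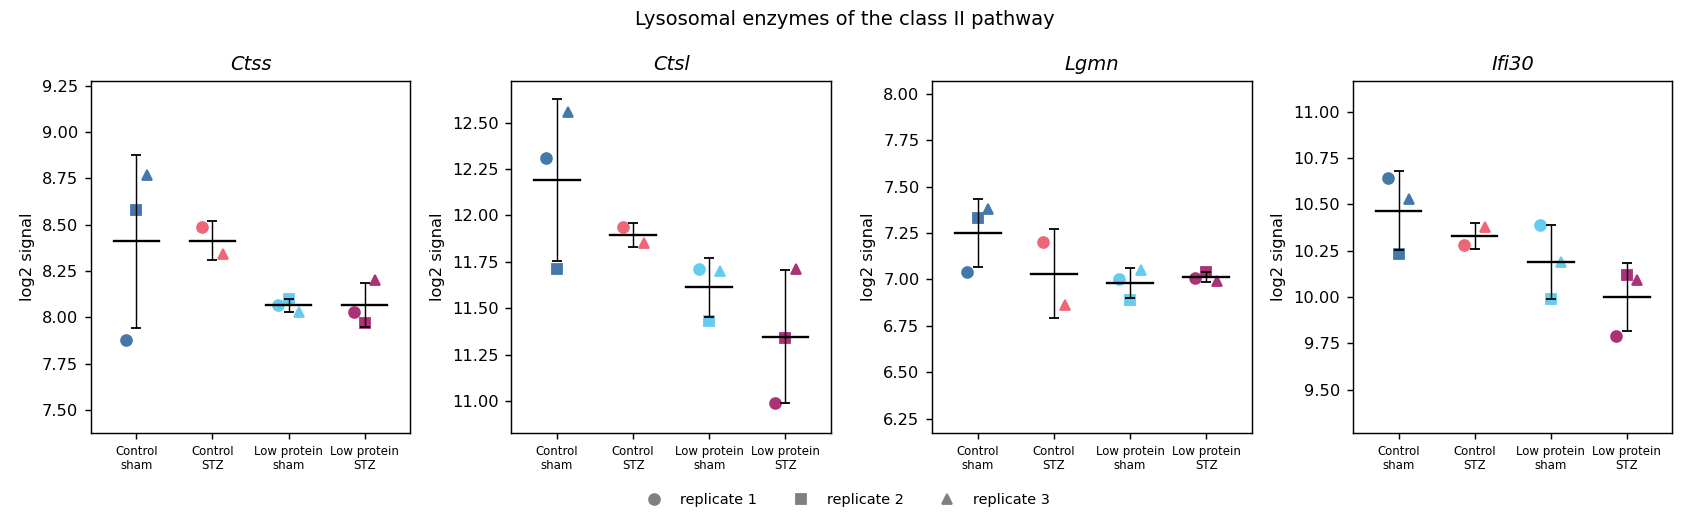
Log2 signal of 4 lysosomal enzymes of the class II pathway on every array (points, shape by replicate number), with group mean (line) and SD (bars), in panels of equal height. Low protein sham arrays of Ctss sit between 8.03 and 8.10, while control sham arrays run from 7.88 to 8.77.

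Ctss read 7.88, 8.58 and 8.77 in control sham arrays, with replicate 1 lowest. It read 8.49 and 8.34 in control STZ, 8.07, 8.10 and 8.03 in low protein sham, and 8.03, 7.97 and 8.20 in low protein STZ arrays. Both control STZ arrays were above all low protein arrays, and control sham 1 was below every other array. Ctsl and Ifi30 did not share that low array, since control sham 1 was the second highest array for Ctsl and had the highest Ifi30 signal of all, 10.64.

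No member passed after adjustment in the averaged diet comparison, and the remaining class II chains tested from the list lay above 0 there. Those other than DM and DO chains, and the RFX subunits, are named here after their values were seen. Averaged over injections, the diet difference was 0.17 ± 0.08 (SE) for H2-DMb2, a β chain of H2-DM, 0.11 ± 0.05 for H2-Eb2, 0.05 ± 0.05 for H2-Ea, the α chain that pairs with H2-Eb1, and 0.04 ± 0.07 for H2-Oa, a chain of the DM inhibitor H2-DO. None passed after adjustment (limma, adjusted p = 0.418, 0.405, 0.686 and 0.852). The subunits of the RFX complex, which binds the X box, differed by 0.04 ± 0.10 (Rfx5), 0.05 ± 0.07 (Rfxap) and -0.10 ± 0.07 (Rfxank). H2-Ea ranged only from 11.02 to 11.21 over the 11 arrays, whereas its partner H2-Eb1 ranged from 9.27 to 10.02.

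Markers of the cells that carry class II were read beside these values. The mean log2 signal of 11 macrophage markers ran from 8.54 to 9.10 in control sham, from 8.74 to 8.89 in control STZ, from 8.72 to 8.76 in low protein sham and from 8.70 to 8.76 in low protein STZ arrays. Control sham 1 was thus the lowest array for macrophage markers and control sham 3 the highest. The mean of the 6 class II members was lowest in low protein sham 3 (8.76) and highest in control sham 2 (9.10), with control sham 1 at 8.82. In the averaged diet comparison 37.9% of 15896 genes lay above 0, and 15.3% had an unadjusted p under 0.05. Of the macrophage markers 9 of 11 lay lower (median -0.09), and 1 was under 0.05, the complement chain C1qb at -0.32 ± 0.12 (SE; limma, adjusted p = 0.308). Itgam was the macrophage marker under the limit for dim probe sets.

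The B-cell and dendritic cell lists varied less over the arrays. Their means lay little above 7.944, the 0.5 quantile of all probe set means. Whether signals at that level follow the number of these cells was not tested. The mean of 10 B-cell markers ran from 8.06 to 8.24 in control sham, from 8.10 to 8.20 in control STZ, from 8.04 to 8.13 in low protein sham and from 8.13 to 8.19 in low protein STZ arrays. Bank1 was dim. The mean of 10 dendritic cell markers lay between 8.23 and 8.35 on every array. That of 7 general leukocyte genes was 9.11 ± 0.03 (SD) in low protein sham, 9.10 ± 0.03 in low protein STZ and 8.98 ± 0.11 in control sham arrays (n = 3 each) and 9.08 ± 0.03 in the 2 control STZ arrays, with control sham lowest where the macrophage list had it highest (8.84 ± 0.28, n = 3). In the averaged diet comparison 5 of these 7 lay higher (median 0.05), led by Laptm5, a lysosomal membrane protein of blood cells, at 0.38 ± 0.08 (SE; limma, adjusted p = 0.0633). The Laptm5 probe set averaged 14.09, where the others on this list averaged from 7.08 (Coro1a) to 9.54 (Rac2). Whether it reads leukocyte RNA was not tested. For diet averaged over injections, 5 of 10 B-cell and 5 of 10 dendritic cell markers lay lower (medians 0.01 and -0.01), with 0 of either list under an unadjusted p of 0.05. Elsewhere, dendritic cell markers under 0.05 were 1 higher and 2 lower for STZ in the low protein diet, against 2.59% of genes. They were 1 higher and 1 lower for diet after STZ (9.47% of genes) and for the difference of the STZ effects (3.56%). For STZ in the control diet 1 was lower (4.06% of genes), and for diet in sham animals 1 was higher (10.4%). B-cell markers under 0.05 were 1 lower for STZ in the control diet, and 1 higher and 1 lower for the difference of the STZ effects. The mean of a list can hide such opposite directions. The mean of 6 T-cell markers ran from 8.78 to 9.10, with Cd3g, Cd5 and Cd28 dim, and Cd3e was 0.22 ± 0.07 (SE) higher in the averaged diet comparison (limma, adjusted p = 0.226). Of the interferon gamma list, 9 genes above the limit averaged between 8.25 and 8.46 on every array, and Ifng itself was dim. No marker on these lists passed after adjustment, and their part in the class II values was not tested.

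**Figure D5:**
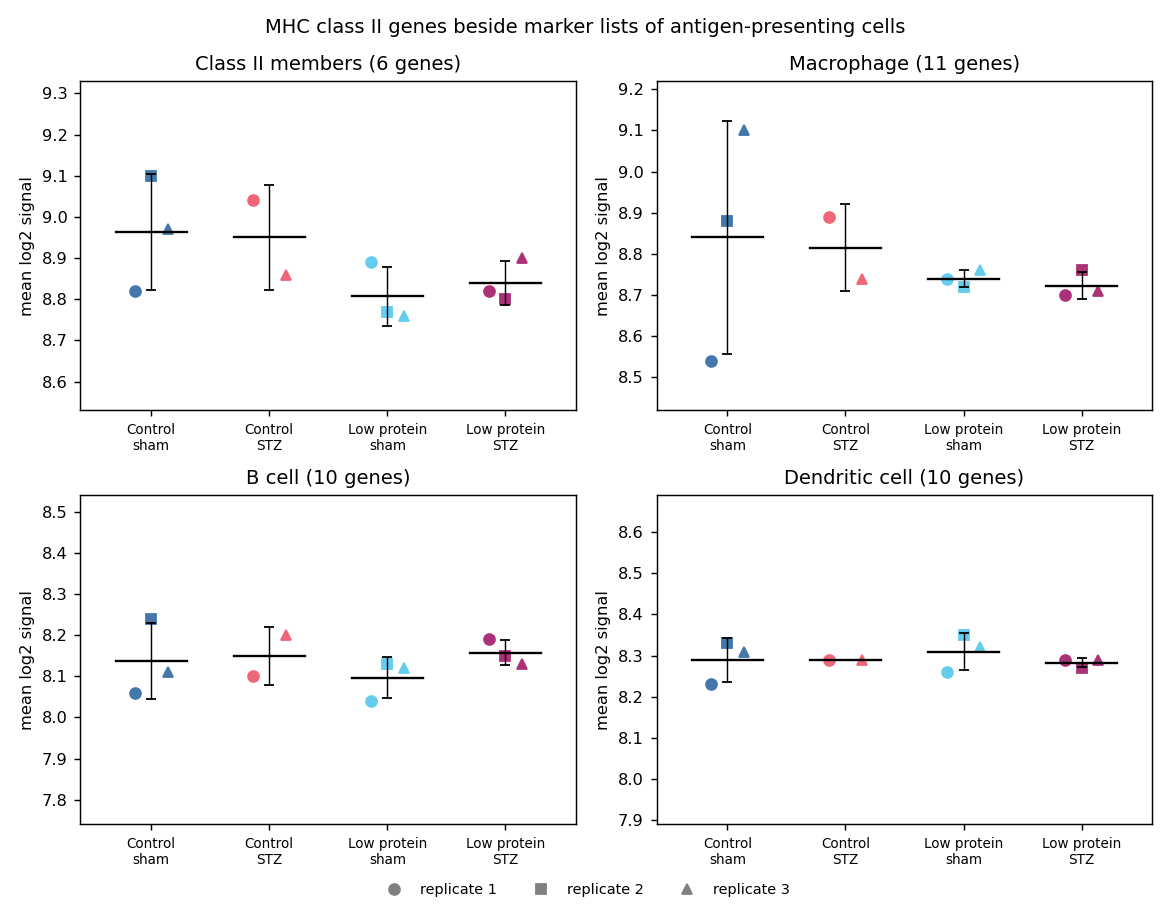
Mean log2 signal on every array (points, shape by replicate number) of the 6 class II members and of macrophage, B-cell and dendritic cell marker lists, with group mean (line) and SD (bars), in panels of equal height. Control sham 1 is the lowest array for macrophage markers (8.54), and the dendritic cell list stays between 8.23 and 8.35.

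Genes with a pattern like that of the class II mean were named by Pearson's r over the 11 arrays, as a description. The mean of the 6 centred member genes was set against 15896 genes with 1 probe set each. The 10 most alike outside the members were Ccnl1 (0.92), Rpl12 (0.90), Pdrg1 (0.89), Reck (0.87), Tubb2a (0.87), Ms4a6b (0.87), A430105J06Rik (0.87), Tm4sf1 (0.86), Wfdc17 (0.85) and AA388235 (0.84). Of the members, which are part of that mean, Cd74 ranked 11 (0.84) and H2-Eb1 ranked 22 (0.82) among all genes. H2-Aa ranked 319 (0.68), H2-Ab1 1048 (0.56), H2-DMa 4242 (0.31) and Ciita 5086 (0.25). With 1 probe set per gene, the r of the members to their own mean thus ran from 0.25 to 0.84. The members with the lowest r, Ciita and H2-DMa, were also the dimmest (means 7.86 and 8.08). Whether the members share one pattern was not tested.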

How the data were processed

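Each deposited value is a log2 signal for 1 probe set on 1 of 11 arrays, as the authors left it. The submitters' processing notes list RMA and Partek 6.5 and no role for either. The sources used here name no genome build. No further scaling was applied. Probe sets were named from GEO's platform annotation, with symbols updated by gene ID: 34958 carried 1 symbol, 932 several and 9211 none. Control probe sets (64) were left out. A model with 1 mean for each of the 4 groups was fitted with limma 3.58.1 in R 4.3.3 (lmFit, eBayes, two-sided) to the probe sets above the dim limit, and was tested on simulated data. The p-values measure the spread between arrays labelled as biological replicates. The number of arrays limits the precision.

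The members and lists were chosen with earlier results of these data known. All member probe sets are named, and the brightest stands for its gene. Companions are named if their unadjusted p was under 0.05 in a comparison or if they are DM or DO chains. Of the leukocyte marker lists described, markers with an unadjusted p under 0.05 in the averaged diet comparison are named; genes named after their values were seen are the dim markers and the companions said to be so. The fit was repeated with the replicate number as a block, on the compared groups alone, with trended robust moderation, with array weights, after cyclic loess, without the dim filter, with a filter at the 0.5 quantile, with 1 probe set per gene, and leaving out each array.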

Additional observations from a re-analysis of the deposited data

How the results depend on the processing

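No member gene passed the adjusted threshold in 311 values under other settings (smallest adjusted p 0.15) or in 462 values with 1 array left out (0.175; limma). Pairing by replicate number was not seen. Deviations from the group means correlated from -0.32 to 0.28 in 15 same-numbered pairs and from -0.46 to 0.39 in 30 differently numbered pairs. Deviations within groups of 2 or 3 arrays depend on each other, so this check cannot exclude pairing. With the replicate block H2-Eb1 in sham animals stayed at -0.32 (limma, adjusted p = 0.457), and the block changed no call. For diet in sham animals, 119 probe sets passed after adjustment when only the groups compared were fitted, and from 0 to 304 with 1 array left out (304 without low protein STZ 1). For diet averaged over injections, 853 passed with array weights and from 0 to 623 with 1 array left out (623 without low protein STZ 3). Member probe sets at an unadjusted p under 0.05 numbered 0 for diet after STZ with only the groups compared. With array weights they numbered 1 for STZ in the low protein diet, 2 for diet in sham animals and 1 for the difference of the STZ effects. With cyclic loess they numbered 0 for diet in sham animals and 1 for diet averaged over injections. With 1 array left out they ran from 0 to 2 for diet in sham animals and averaged over injections, and from 0 to 1 for diet after STZ, STZ in either diet, the difference of the STZ effects and the F test. The genes called could change while a count did not. For diet averaged over injections, Cd74 (-0.26) took the place of H2-DMa with array weights and also without low protein STZ 3 (-0.26). Without control sham 1, H2-Aa (-0.23) took that place. The causes were not tested. Groups of 2 or 3 arrays limit what could be seen.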
